A study of Mus musculus with 12 samples.

Results

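The genes described here encode the proteins of the cytosolic ribosome and were measured in mouse eWAT, the white fat pad that lies on the epididymis, 1 h after an injection of epinephrine. They were chosen by name alone. A gene belonged if its symbol was Rpl or Rps followed by a number, with or without a closing a, x, l or y and digit, or was Rplp0, Rplp1, Rplp2 or Rpsa. Processed pseudogenes with a -ps ending and the Rps6 kinases were left out. Of the 27179 genes in the count table, 87 met the rule, 54 for the large (60S) and 33 for the small (40S) subunit. They lie on 19 chromosomes, and 4 are X-linked. RefSeq types 85 of them as protein-coding and 2, Rps4l and Rpl6l, as pseudogenes, and these stay in because the rule goes by name. RNA sequencing was done on 12 male C57BL/6J mice fed chow, each a separate animal per the labels. Saline was injected intraperitoneally into the 6 vehicle mice. The 6 epinephrine mice were given epinephrine, a hormone of the adrenal medulla and ligand of the adrenergic receptors, at 0.5 mg/kg by the same route. No mouse carried a listed transgene or deletion. The listed ages run from 12 to 17 weeks in the vehicle group and from 18 to 23 weeks in the epinephrine group, so that listed age and treatment cannot be told apart. Each mouse is listed as 1 week older than the one before it, so within a group the listed age follows the replicate number. Libraries are named by group and replicate number, as vehicle 2 or epinephrine 1.

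Each ribosome holds a large and a small subunit, and cells build them in the nucleolus from ribosomal RNA and roughly equal numbers of most ribosomal proteins. The messenger RNAs of these proteins are long-lived and abundant and start with a run of pyrimidines, the terminal oligopyrimidine (TOP) motif, through which the kinase mTORC1 sets how often they are translated. The TOP motif acts on translation, which a read count of total transcript does not measure. In adipocytes, epinephrine acts mainly through cyclic AMP and starts the breakdown of stored triglyceride.

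The libraries held between 24821601 and 34405433 assigned reads. All 12 adipocyte markers were detected in these samples, with summed levels of 13730 to 42680 CPM in the vehicle and 17840 to 39950 CPM in the epinephrine libraries (CPM are counts scaled to library size with edgeR's TMM factors). Transcripts of the epididymis were present as well. The 15 epididymal markers summed to between 39.9 and 44120 CPM in the vehicle and between 96.3 and 33740 CPM in the epinephrine libraries, all 15 were tested, and 0 were called in either direction. No marker other than the defensin gene Defb2, listed at 0 in vehicle 6 and epinephrine 6, was at 0 in any library. Vehicle 2 and epinephrine 1 had the highest epididymal score, the mean log2 CPM of these 15 markers, at 10.05 and 10, and the lowest adipocyte sums of their groups. Epinephrine 2 followed at 9.28, and vehicle 6 was lowest at -0.93.

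A pyrimidine run near the start, the feature from which the TOP class has its name, was common in the ribosomal protein genes. In RefSeq's GRCm38.p6 promoter table, 65 of the 87 genes had an entry. A run of at least 8 C or T on the strand that reads as the transcript lay within 50 bases of a start in 55 of them (84.6%), against 39.7% of the 12254 tested genes in the table and 25 of 68 mitochondrial ribosomal protein genes (36.8%). The search did not require the run to begin at the start, and in some genes, such as Rpl26 and Rpsa, it lies well upstream. Below are the 60 bases before and the first 25 bases from the start of 8 genes, with the pyrimidine run in capitals where it falls inside this window. Rpl7a and Rpl35 have long runs, Rps6 and Rps26 short ones, Rplp2 and Rpl7l1 kept steady levels across libraries, and Rplp0 and Rpl3l varied widely between them.
Rpl7a, chr2:26910747-26910831, plus strand: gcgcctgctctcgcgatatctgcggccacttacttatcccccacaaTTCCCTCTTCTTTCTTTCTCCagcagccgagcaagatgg
Rpl35, chr2:39005107-39005191, minus strand: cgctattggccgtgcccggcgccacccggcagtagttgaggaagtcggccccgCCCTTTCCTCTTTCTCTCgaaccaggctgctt
Rps6, chr4:86857343-86857427, minus strand: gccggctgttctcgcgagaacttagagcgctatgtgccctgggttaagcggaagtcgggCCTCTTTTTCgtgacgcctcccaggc
Rps26, chr10:128626482-128626566, minus strand: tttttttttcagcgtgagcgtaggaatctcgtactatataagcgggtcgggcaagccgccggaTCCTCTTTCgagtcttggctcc
Rplp2, chr7:141447591-141447675, plus strand: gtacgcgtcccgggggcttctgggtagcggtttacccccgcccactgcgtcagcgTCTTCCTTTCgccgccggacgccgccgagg
Rplp0, chr5:115559407-115559491, plus strand: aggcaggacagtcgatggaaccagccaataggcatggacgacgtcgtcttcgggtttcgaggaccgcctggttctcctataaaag
Rpl7l1, chr17:46782632-46782716, minus strand: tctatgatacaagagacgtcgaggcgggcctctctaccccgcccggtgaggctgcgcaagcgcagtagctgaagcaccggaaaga
Rpl3l, chr17:24727766-24727850, plus strand: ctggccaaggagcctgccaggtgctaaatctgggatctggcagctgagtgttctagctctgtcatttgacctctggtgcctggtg
The run is 21 bases in Rpl7a, 18 in Rpl35, 10 in Rps6 and Rplp2, and 9 in Rps26. Rplp0 and Rpl7l1 had no such run within the 50 bases, and the 9-base run of Rpl3l lies outside the bases shown. Rps26 swung most between libraries apart from Rpl3l, and Rplp2 was steady. Whether run length goes with spread over the family was not tested.

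Other short motifs were counted in the 300 bases from 250 before to 50 after each start, on both strands, and no motif searched contains another. The ETS factor core CGGAAG occurred in 43 of the 65 ribosomal protein genes (66.2%), in 31.3% of the tested genes and in 55.9% of the mitochondrial ribosomal protein genes. The YY1-type AAGATGGC occurred in 6 (9.23%) against 4.61% of tested genes, the E-box CACGTG in 6 (9.23%) against 11%, and TATAAA in 8 (12.3%) against 9.56%. In the mitochondrial ribosomal protein genes these shares were 16.2%, 5.88% and 7.35%, in the same order. The full cyclic AMP response element TGACGTCA, a site that CREB binds, was found in 5 (7.69%), against 3.25% of tested genes and 2.94% of mitochondrial ribosomal protein genes. These 5 were Rpl13, Rpl18, Rpl26, Rpl27a and Rps9. Their log2 fold changes lay between 0.01 (Rps9) and 0.18 (Rpl26), and none passed the test. A match of letters describes the sequence and is not a bound site.

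The comparison of epinephrine with saline asked whether the transcripts of these genes changed within the hour, and none was called. Of the 87 genes, 85 had enough counts to be tested, and 0 were higher and 0 lower with epinephrine (edgeR quasi-likelihood test, Benjamini-Hochberg adjusted p under 0.05 over 16175 genes). Over all tested genes, 2.65% were higher and 3.58% lower, 6.23% in either direction. The smallest adjusted p among the 85 was 0.282, for Rpl6l. At an unadjusted p under 0.05 there was 1, against 17.2% of all tested genes, and DESeq2 gave 0 calls and 4 at an unadjusted p under 0.05. In none did the 6 epinephrine libraries lie clear of the 6 vehicle libraries, while this happened in 4.79% of all tested genes. The sum of their levels was 14460 ± 1943 CPM in the vehicle and 15180 ± 2244 CPM in the epinephrine libraries (SD, n = 6 each). In a bulk sample such as this, fewer cells of a type and less RNA per cell cannot be told apart.

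The intervals around the fold changes were narrow. In 78 of the 85 genes (91.8%) the 95% interval of the fold change lay within 1.5-fold in either direction, against 50.9% of all tested genes, and in 84 it lay within 2-fold, against 75.1%. The 7 genes with wider intervals were Rpl26, Rpl36al, Rpl39, Rpl3l, Rpl41, Rpl6l and Rps26. Narrow intervals were not particular to this family. They lay within 1.5-fold in 74 of 77 mitochondrial ribosomal protein genes (96.1%) and 48 of 50 ribosome biogenesis genes (96%). The median coefficient of variation within groups was 15.1% for the 85 genes, 20.5% for all tested genes and 9.67% for the 77 tested mitochondrial ribosomal protein genes. Fold changes were small, with log2 values from -0.08 (Rpl22) to 0.64 (Rpl3l). The median was 0.06 against -0.0006 for all genes, and 80 of 85 values (94.1%) were above 0, against 49.8% of all genes. The large subunit had a median of 0.07 with 49 of 52 above 0, and the small subunit 0.05 with 31 of 33. The size and sign of this lean depended on single libraries. Without epinephrine 1 the median was -0.02 with 36 of 85 above 0, without vehicle 2 it was 0.15 with 84 above 0, and without both it was 0.08 with 83 above 0. Scaled by library size alone, it was -0.04 with 20 above 0, and that scaling moved the median of all genes to -0.11. Under all 5 scalings, library size included, the median of the ribosomal protein genes lay 0.06 above that of all genes. A scaling shifts the log2 fold changes of all genes nearly alike, so this gap could hardly change between scalings. It did change with the libraries, to 0.02 without epinephrine 1 and 0.12 without vehicle 2, and was 0.06 without both.

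**Figure D1:**
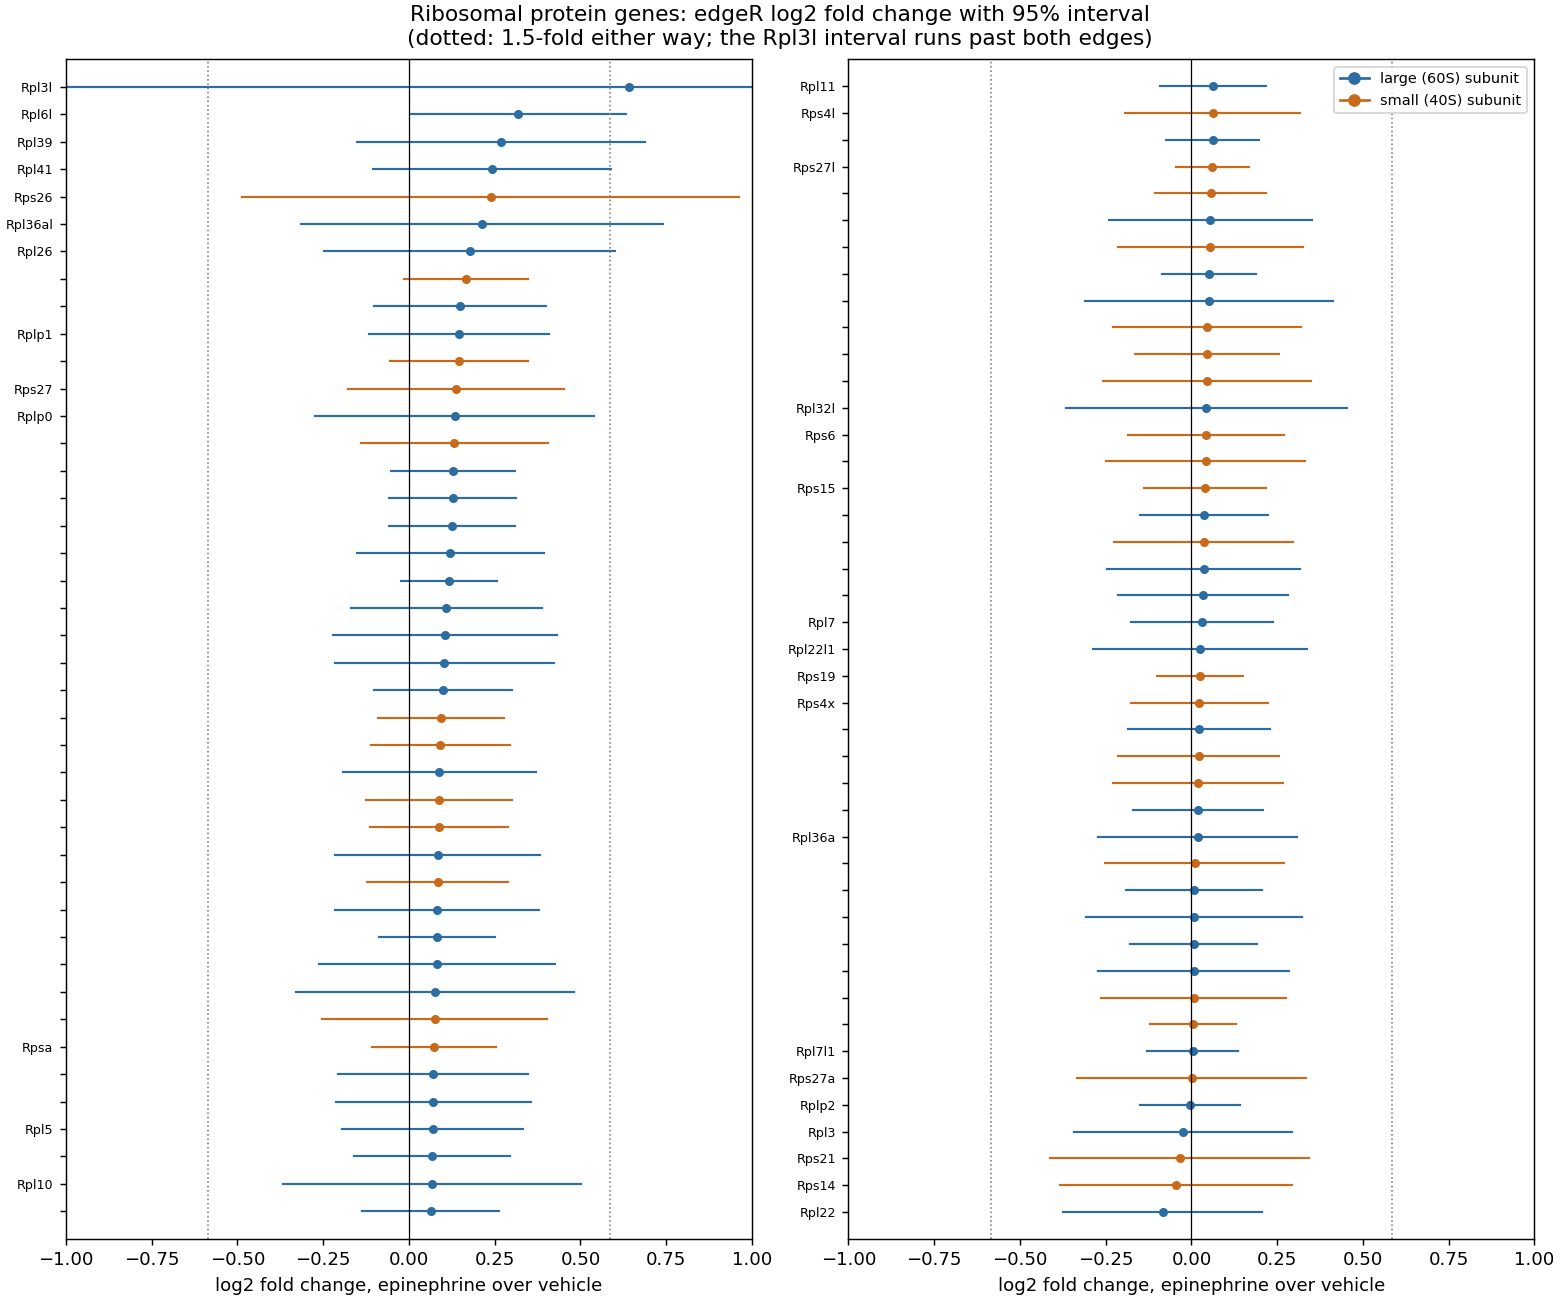
Log2 fold change (epinephrine over vehicle, x axis) of the 85 tested ribosomal protein genes, with its 95% interval from the edgeR fit as a line, sorted from Rpl3l at the top left to Rpl22 at the bottom right, with labels on some of the genes named in the text. Blue marks the large and orange the small subunit, and 78 intervals lie between the dotted lines at 1.5-fold.

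The stalk proteins, which recruit elongation factors to the large subunit, showed how much the noise differed inside a single structure. Rplp0, its base (RefSeq chr5:115559467-115563729), ranged from 529 through a median of 573 to 912 CPM in the vehicle and from 532 through 620.1 to 987 CPM in the epinephrine libraries. Vehicle 2 was the highest vehicle library and stood apart from the other 5, epinephrine 1 was the highest epinephrine library with epinephrine 2 next at 763.5 CPM, and the groups overlapped. Its fold change was 1.10 (95% interval 0.827 to 1.45, edgeR adjusted p = 0.8455). Rplp1 had the highest level per length of the family. It ran from 455 through 499 to 551 CPM in the vehicle and from 428 through 543 to 749 CPM in the epinephrine libraries, and its fold change was 1.11 (95% interval 0.923 to 1.33, edgeR adjusted p = 0.6455). Rplp2, its partner in the stalk dimer, barely moved, at 303 ± 13.2 CPM in the vehicle and 302 ± 19.9 CPM in the epinephrine group (SD, n = 6 each; 95% interval of the fold 0.901 to 1.10).

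Rps6 encodes the small subunit protein that S6 kinase phosphorylates, a common readout of mTORC1 activity. Its transcript ranged from 117 through 128 to 159 CPM with vehicle and from 120.3 through 131 to 173 CPM with epinephrine, with groups that overlapped almost fully. The fold change was 1.03 (95% interval 0.880 to 1.21, edgeR adjusted p = 0.93). Rpl5 and Rpl11 encode the proteins that, with 5S ribosomal RNA, bind and block Mdm2 when ribosome assembly fails. Rpl5 was at 149.5 ± 20.4 and 157 ± 26.9 CPM, and Rpl11 at 169 ± 7.63 and 176.5 ± 16.9 CPM (vehicle and epinephrine, SD, n = 6 each). In the list of 8 genes that holds these 3, other Mdm2-binding ribosomal proteins and Rack1, 0 were called in either direction, with log2 fold changes of 0.02 to 0.18. Rpsa, also known as a laminin receptor, was at 251.5 ± 19.6 and 264.5 ± 26.4 CPM (SD, n = 6 each).

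Rps27a is made as a fusion of ubiquitin with a small subunit protein, and its transcript did not differ between the groups beyond their spread, at 70.2 ± 14.4 and 70.3 ± 13.2 CPM (SD, n = 6 each; 95% interval of the fold 0.794 to 1.26). Fau, the gene of another small subunit protein made as a fusion, had a log2 fold change of 0.04 (SE 0.16, edgeR adjusted p = 0.954).

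Several ribosomal protein genes have a paralog in the genome. Of the 8 paralogs in the table, 6 were tested and 0 were called, as were 0 of the 9 parents, and the 2 others, Rpl10l and Rpl39l, had at most 9 and 12 counts in any library. Rpl26l1 was not analysed here. The paralogs Rps27l, a p53 target in other settings, and Rpl7l1, an assembly factor resembling Rpl7, were among the steadiest of all. Rps27l spanned 42.2 to 47.2 CPM with vehicle and 45.6 to 49.8 CPM with epinephrine (fold 1.04, 95% interval 0.969 to 1.12, edgeR adjusted p = 0.632), and Rpl7l1 spanned 50.1 to 61.2 and 52.9 to 59.3 CPM (95% interval of the fold 0.915 to 1.10). Their parents varied more. In Rps27, a small subunit protein, the highest library (epinephrine 1, 276 CPM) was 1.735-fold the lowest, against 1.18-fold in Rps27l. Rpl7 had a log2 fold change of 0.03 (SE 0.09).

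Rpl22l1, a paralog that Rpl22 is known to repress, had opposite leans in the replicate numbers. In vehicle libraries 1 to 6 it read 31.4, 32.3, 26.9, 23.6, 22.0 and 23.0 CPM, and in epinephrine libraries 1 to 6 it read 23.6, 19.9, 27.75, 28.25, 27.3 and 35.3 CPM. The vehicle values were highest at numbers 1 and 2 and the epinephrine values lowest there, so the group means of 26.5 and 27.0 CPM were almost equal (log2 fold change 0.03 with an SE of 0.14, adjusted p = 0.973 by edgeR). Fitted alone, numbers 4 to 6 gave 0.40 (edgeR adjusted p = 0.0677) and numbers 1 to 3 gave -0.33 (edgeR adjusted p = 0.678), and the difference between these was not tested. Rpl22 itself had the lowest fold change of the family, from 175 ± 30.9 to 165 ± 27.2 CPM (n = 6 each, SD; log2 fold change -0.08 with an SE of 0.13, adjusted p = 0.871 by edgeR). Its 2 other neighbours at the low end were Rps14 at -0.04 and Rps21 at -0.03.

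Rpl36al, whose product is nearly the same as that of Rpl36a, was uneven, at 51.1 ± 13.4 and 59.2 ± 22.9 CPM, and its parent was steadier, at 85.2 ± 13.8 and 86.2 ± 15.5 CPM (vehicle and epinephrine, SD, n = 6 each). The X-linked Rps4x was at 229 ± 23.95 and 233 ± 24.81 CPM and its autosomal copy Rps4l at 31.3 ± 2.99 and 32.65 ± 6.17 CPM (SD, n = 6 each). Rpl10, which completes the large subunit and is the parent of the untested Rpl10l, was at 273 ± 77.5 and 285.5 ± 73.15 CPM, and Rpl26 at 207 ± 53.8 and 234 ± 62.7 CPM (SD, n = 6 each). In all 6 of these genes vehicle 2 and epinephrine 1 held the highest values of their groups, and the groups overlapped.

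Rpl3l (chr17:24727826-24736143), the paralog of Rpl3 known from skeletal and cardiac muscle, differed between libraries more than any other member. It read 8.94, 56.8, 12.4, 1.44, 0.163 and 0.1475 CPM in vehicle 1 to 6 and 65.4, 53.7, 4.62, 0.439, 0.199 and 0 CPM in epinephrine 1 to 6. High and low libraries occurred in both groups, and the groups overlapped throughout. In epinephrine 6 no read was counted, where 3 reads would be 0.121 CPM, and in vehicle 5, vehicle 6 and epinephrine 5 there were 5 reads each. The group means were 13.3 ± 21.9 and 20.7 ± 30.35 CPM (SD, n = 6 each), with a log2 fold change of 0.64 (SE 1.63, edgeR adjusted p = 0.932), so that the 95% interval of the fold runs from 0.132 to 18.4. Rpl3 counts varied 1.65-fold in level over the same libraries, and Rpl3l reads were at most 21.3% of Rpl3 reads, in epinephrine 2, and 0.0686% in vehicle 6. Among 5 muscle genes, Ckm, Myh4, Mylpf and Tnnt3 were at most at 0.6505, 0.0361, 1.41 and 1.28 CPM. Ckm, Myh4 and Mylpf had these maxima in vehicle 2, and Tnnt3 in epinephrine 5. Within the epinephrine group, Ckm (0.335 CPM) and Mylpf (1.15 CPM) were highest in epinephrine 1, where Rpl3l was highest. Tnnt3 was lowest in that library, at 0.260 CPM. Acta1, the skeletal actin gene, was higher, at 5.60 to 51.3 CPM in the vehicle and 34.5 to 69.2 CPM in the epinephrine libraries, and was lowest of all in vehicle 2, where Rpl3l was highest in its group. The part of muscle in the Rpl3l level was not tested. No other annotated gene was near-identical to Rpl3l in coding sequence.

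**Figure D2:**
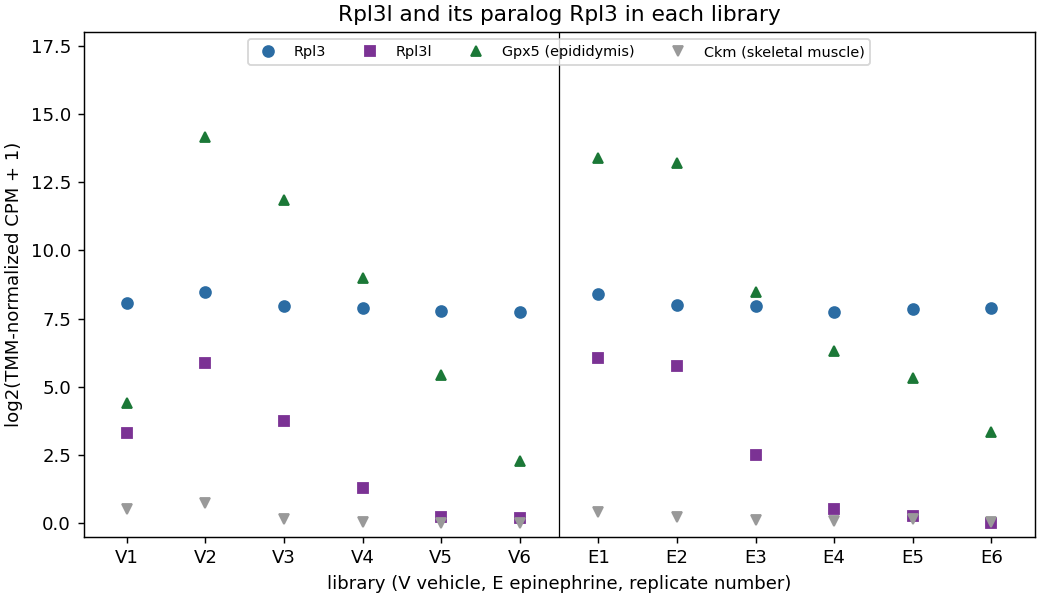
Level of Rpl3, Rpl3l, the epididymal gene Gpx5 and the muscle gene Ckm, as log2 of TMM-normalized CPM plus 1 (y axis), in each of the 12 libraries (x axis). Rpl3l falls from 56.8 CPM in vehicle 2 to 0.1475 CPM in vehicle 6 and from 65.4 CPM in epinephrine 1 to 0 in epinephrine 6. Rpl3 varies 1.65-fold over the 12 libraries and is highest in vehicle 2 and epinephrine 1 within their groups, and Ckm stays near the bottom.

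The remaining members at the edge of the fold changes were low in level or uneven. Rpl6l, typed as a pseudogene by RefSeq, ranged from 13.3 through 15.0 to 17.7 CPM with vehicle and from 14.2 through 17.8 to 26.5 CPM with epinephrine (log2 fold change 0.32 with an SE of 0.14, adjusted p = 0.282 by edgeR), with its highest value in epinephrine 1. Rpl39, which lines the tunnel through which the new protein leaves, had 34 to 88 counts per library and a log2 fold change of 0.27 (SE 0.19, edgeR adjusted p = 0.574). Rps26, which sits where messenger RNA leaves the small subunit, ranged from 144 through 172 to 348 CPM with vehicle and from 151 through 184 to 481 CPM with epinephrine. Its level in epinephrine 1 was 3.35 times that in vehicle 5, and the wide spread left an interval of 0.714 to 1.95 for the fold (edgeR adjusted p = 0.845).

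Levels per length of the gene model spanned 208-fold among the 85 tested genes. The median was 200.2 CPM per kilobase. Rplp1 was highest at 1136, followed by Rplp2 at 685 and Rps15 at 654 CPM per kilobase, and Rpl39, Rpl32l and Rpl3l were lowest at 5.47, 6.41 and 10.7. The untested Rpl39l and Rpl10l lay lower still, at 0.236 and 0.0974 CPM per kilobase. Ribosomal protein genes have many processed copies in the genome. A near-identical gene, with at least 95% identity over at least 80% of the coding sequence, was annotated for 75 of the 84 members that had a coding transcript, with a median of 5 such genes and a maximum of 57, for Rpl21. Rpl39, the lowest tested member, had 9 such genes, all typed as pseudogenes. The 17 tested members with 10 or more copies had a median level of 112 CPM per kilobase, the 57 with 1 to 9 copies 261, and the 8 without 197. Rows with a -ps name held 0.00473% to 0.00761% of counts. How reads that fit several copies were counted is not given in the sources used here, so the levels of genes with copies are uncertain, while a loss that is alike in all libraries cancels in a fold change. Part of the order also follows the listed length, as for Rps15a, whose gene model is 5136 bases long and whose level was 20.3 CPM per kilobase.

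**Figure D3:**
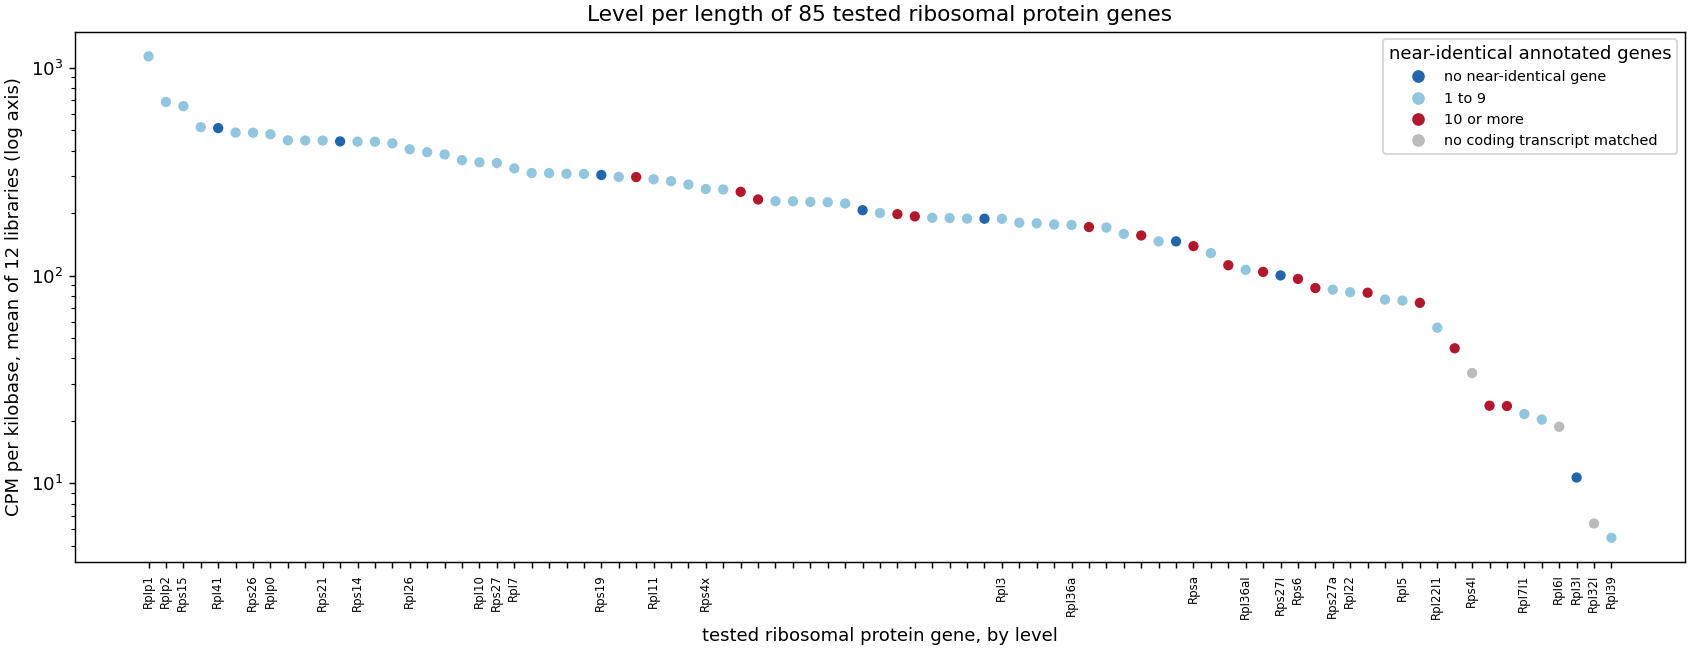
Mean level of each tested ribosomal protein gene over the 12 libraries in TMM-normalized CPM per kilobase of the deposited gene length (y axis, log scale), sorted, with colour for the number of near-identical annotated genes and labels on some of the genes named in the text. Levels run from 1136 for Rplp1 to 5.47 for Rpl39, and members with 10 or more copies (red) lie mostly in the lower part, with a median of 112.

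The largest differences in this gene family lay between libraries of the same group. Its 87 genes held 1.65%, 1.95%, 1.52%, 1.36%, 1.27% and 1.29% of the counts in vehicle 1 to 6 and 2.00%, 1.47%, 1.44%, 1.26%, 1.30% and 1.33% in epinephrine 1 to 6. Vehicle 2 and epinephrine 1 stood at the top, and the group means of 1.51% ± 0.259 and 1.47% ± 0.275 (SD, n = 6 each) differed by less than this spread. Within the vehicle group, 76 of 85 tested members (89.4%) were highest in vehicle 2, against 35.4% of all tested genes, and within the epinephrine group 78 (91.8%) were highest in epinephrine 1, against 32.9%. Only 12 and 9 of the 77 mitochondrial ribosomal protein genes had their peak in those libraries. The ratio of the summed levels of the large to the small subunit was 1.52, 1.55 and 1.55 in vehicle 2, epinephrine 1 and epinephrine 2 and between 1.42 and 1.48 in the other libraries, and this difference was not tested. Rps19, Rplp2 and Rps27l were among the steadiest members, with a highest library at 1.16 to 1.18 times the lowest.

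**Figure D4:**
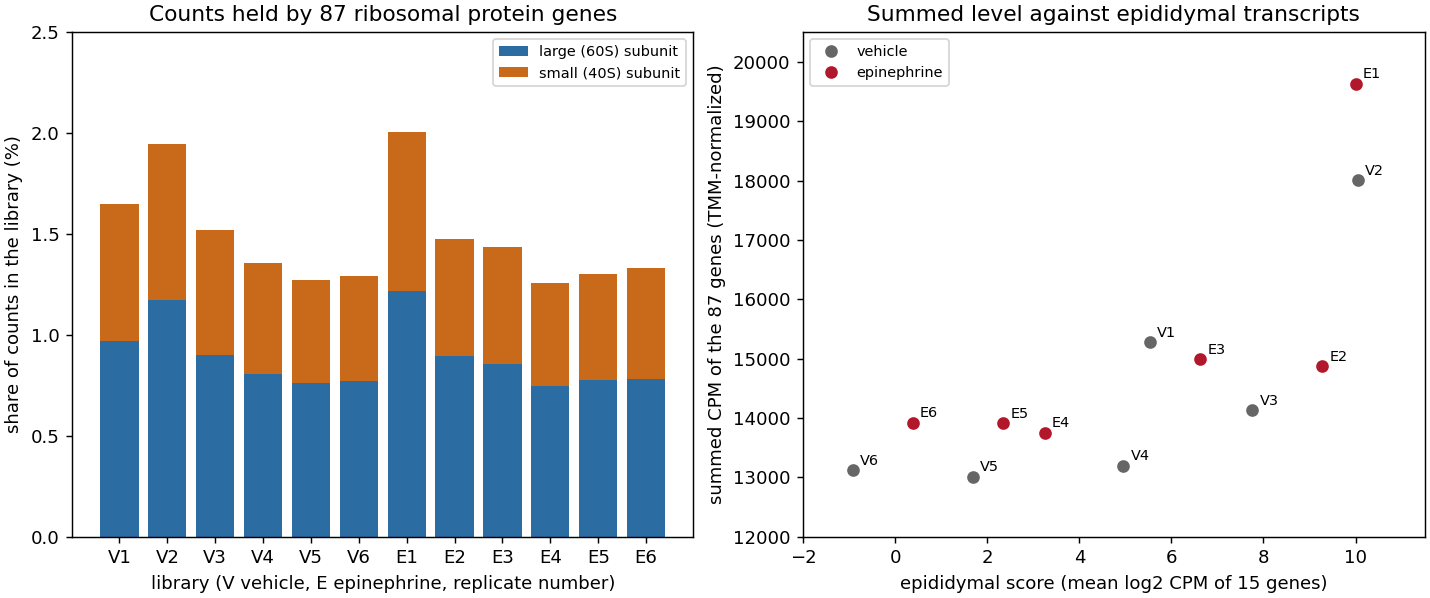
Left, share of all counts held by the 87 genes in each library, stacked by subunit, and right, their summed CPM (y axis, which starts above 0) against the epididymal score (x axis) with each point a library. Vehicle 2 and epinephrine 1 hold 1.95% and 2.00% of counts and have the highest scores, and epinephrine 2 has a score of 9.28 with a sum of only 14870 CPM.

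Library differences went along with the epididymal score, which was examined after this variation had been seen. In an edgeR fit with group and score over all 12 libraries, 56 of 85 members (65.9%) had a level that rose with the score at an adjusted p under 0.05, against 22.0% of all tested genes, and 1 fell, against 22.6%. By subunit, 37 of 52 large and 19 of 33 small subunit genes rose. Of the 77 mitochondrial ribosomal protein genes, 6 rose and 26 fell. Of the 20 other translation factors with a TOP motif, 14 rose and 1 fell. Rpl3l had the steepest slope, 0.99 log2 units per unit of the score (SE 0.07, edgeR adjusted p = 9.71e-06), followed by Rps26 at 0.13 (SE 0.02, edgeR adjusted p = 0.00264), Rpl36al at 0.09, Rpl10 at 0.07, Rpl26 at 0.07 and Rplp0 at 0.07. The median slope was 0.04 log2 units per unit of a score that ran from -0.93 to 10.05. Rpl7l1 was the member that fell, at -0.02 (edgeR adjusted p = 0.022), and it did not pass without vehicle 2, vehicle 4 or epinephrine 4, under library size scaling or with the replicate block.

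The count of rising members depended on a few libraries. It was 24 without vehicle 2, 24 without epinephrine 1 and 3 without both, where 5.83% of all tested genes rose. With vehicle 2, epinephrine 1 and epinephrine 2 left out, the libraries where Gpx5 took over 0.5% of counts, it was 1, namely Rpl3l, whose slope was 0.94 (edgeR adjusted p = 0.0131). With the replicate number as a block it was 0, with 8 at an unadjusted p under 0.05 and 1.13% of all tested genes called, and Rpl3l had a slope of 0.68 (edgeR adjusted p = 0.0636). Epinephrine 2 went against the pattern, with a score of 9.28 but a summed level of 14870 CPM, where vehicle 2 and epinephrine 1 had 18010 and 19630 CPM. In vehicle 2 and epinephrine 1 the summed markers of adipocytes (13730 and 17840 CPM) and macrophages (912 and 825 CPM) were lowest in their group. So were those of endothelial cells (662 and 734 CPM) and of fibroblasts and progenitors (3331 and 2994 CPM). The mesothelial sum (570.7 and 520.8 CPM) was not, with group minima of 375.6 and 439.8 CPM, but its members differed. Msln (26.6 and 25.5 CPM), Upk3b, Lrrn4 and Wt1 were lowest of their group in both libraries. Krt8 (190.7 and 210 CPM) and Krt19 (119.5 and 97.2 CPM) were highest in both, and Upk1b was highest in vehicle 2 alone. Lymphocyte markers were lowest in epinephrine 1 but not in vehicle 2, at 19.01 CPM against a minimum of 13.01 CPM. Within the fibroblast and progenitor list, Pdgfra was highest in vehicle 2 (273.4 CPM), while Dcn was lowest of the vehicle libraries there (1027 CPM). The part of other cells, of RNA quality or of the tissue's composition in these differences was not tested. With the score as a covariate, the comparison of epinephrine with vehicle still called 0 members, with a median log2 fold change of 0.05.

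**Figure D5:**
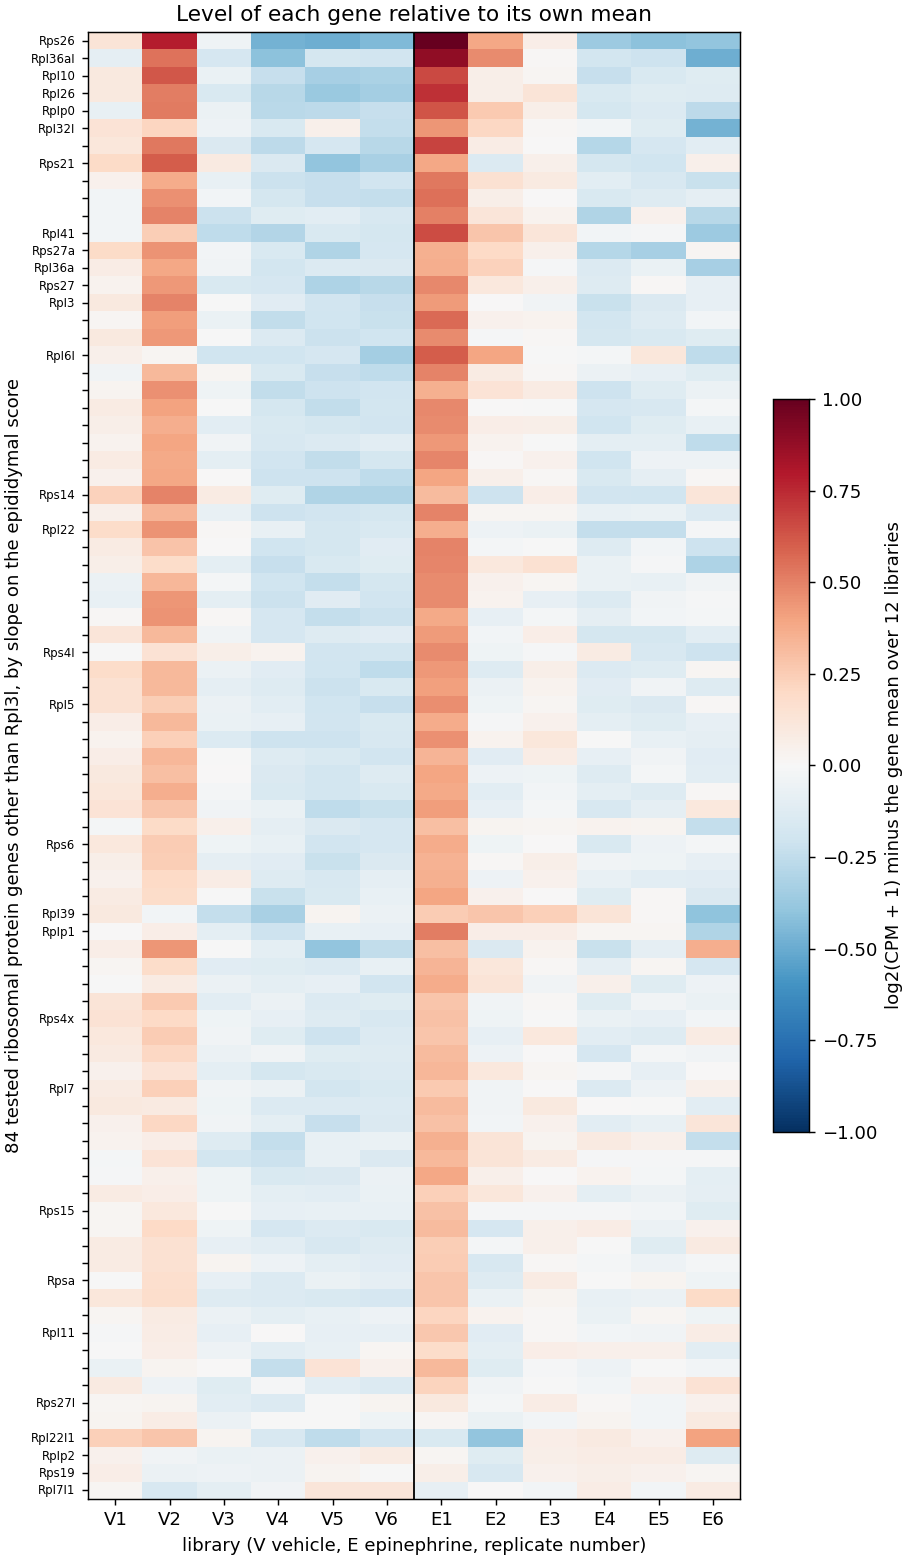
Level of the 84 tested members other than Rpl3l in each library, as log2 of CPM plus 1 minus the gene's mean over the 12 libraries (colour, which stops at 1 on either side), with genes ordered by their slope on the epididymal score and labels on some of the genes named in the text. The columns of vehicle 2 and epinephrine 1 are red in most rows, and Rps26 is at the top, while Rplp2, Rps19 and Rpl7l1 at the bottom stay pale.

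Genes that make or regulate ribosomes were compared in the same fit, on lists that go beyond the ribosomal proteins themselves. Of the 20 translation factors with a TOP motif, 0 were called, with a median log2 fold change of 0.06. Among those with the smallest p were Hnrnpa1, an RNA-binding protein, at 0.17 (edgeR adjusted p = 0.324), and Eef1g, an elongation factor subunit, at 0.16 (edgeR adjusted p = 0.443). Of 50 ribosome biogenesis genes, 2 rose and 0 fell, a share near the 2.65% and 3.58% of all tested genes, and the median was -0.03. Gnl3, the nucleolar GTPase nucleostemin, rose from 31.6 ± 3.49 to 44.5 ± 5.40 CPM (n = 6 each, SD; log2 fold change 0.49 with an SE of 0.10, adjusted p = 0.0113 by edgeR). Fbl, the methyltransferase fibrillarin, rose from 26.02 ± 1.32 to 30.85 ± 2.04 CPM (n = 6 each, SD; log2 fold change 0.25 with an SE of 0.06, adjusted p = 0.0296 by edgeR or 0.0665 under the replicate block). The Fbl call was also lost without any of vehicle 1 and 6 and epinephrine 4, 5 and 6, at adjusted p-values of 0.0616 to 0.0856. Sdad1, a 60S assembly factor, had a log2 fold change of -0.22 (edgeR adjusted p = 0.0533).

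RNA polymerase I, which transcribes the ribosomal RNA genes, had calls in both directions, 2 higher and 2 lower of 14 tested genes, where 2.65% and 3.58% of all tested genes were called. Taf1d, a subunit of its promoter factor SL1, rose from 16.6 ± 1.59 to 27.1 ± 4.04 CPM (n = 6 each, SD; log2 fold change 0.70 with an SE of 0.10, adjusted p = 0.00217 by edgeR), and each epinephrine library lay above each vehicle library. Polr1d, a subunit shared with RNA polymerase III, rose from 42.0 ± 2.53 to 51.9 ± 2.26 CPM (log2 fold change 0.31 with an SE of 0.05, adjusted p = 0.00517 by edgeR). The Polr1d call was lost with numbers 4 to 6 alone and with listed age as a covariate. Taf1c, another SL1 subunit, fell from 10.9 ± 0.496 to 7.75 ± 1.23 CPM (log2 fold change -0.49 with an SE of 0.11, adjusted p = 0.0177 by edgeR), and this call was lost without vehicle 4 (adjusted p = 0.0759). Polr1b, the second-largest subunit, had a log2 fold change of -0.37 (SE 0.08, edgeR adjusted p = 0.022). The Polr1b call was lost with the replicate block (adjusted p = 0.0641) and without vehicle 4 or epinephrine 2, 3 or 4 (adjusted p of 0.0504 to 0.0735).

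Among 18 regulators of mTORC1 and of TOP translation, 2 rose and 1 fell, again beside 2.65% and 3.58% of all tested genes. Sesn2, a stress-induced leucine sensor that restrains mTORC1, rose from 43.4 ± 10.7 to 85.5 ± 21.6 CPM (n = 6 each, SD; log2 fold change 0.98 with an SE of 0.20, adjusted p = 0.0141 by edgeR). Its relative Sesn1 fell from 56.9 ± 4.96 to 42.7 ± 5.57 CPM (log2 fold change -0.41 with an SE of 0.09, adjusted p = 0.0187 by edgeR or 0.0548 under the replicate block). Rheb, the GTPase that activates mTORC1, had a log2 fold change of 0.25 (SE 0.07, edgeR adjusted p = 0.0454, or 0.081 under the replicate block), a call lost in 17 of 29 alternative fits, 9 of which left out a single library. Of the 77 tested mitochondrial ribosomal protein genes 1 was called, Mrpl54, at 0.31 (edgeR adjusted p = 0.0459), and their median was 0.03.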

How the data were processed

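RNA from the epididymal fat of 12 mice, 6 per group, was made into libraries with a SMARTER mRNA kit, per the labels' protocols, and titles gave each sample's group. Per the submitters' processing notes, the tools were cutadapt, FastQC, featureCounts, HISAT2 and DESeq2 and the build was mm10, with no roles given. Each tool's version, the strand setting, the annotation and the handling of reads that fit several places are not given in any source used here. The authors deposited whole-number read counts for 27179 genes, with gene lengths in bases, and for 20185 of them variance-stabilized values, which are log2-like. Rows with no symbol (1312, 0.253% to 0.315% of counts) stayed in library sizes and tests. None of 66 pairs of libraries held identical counts.

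Genes were filtered with filterByExpr (minimum count 10, minimum total 15), scaled with TMM and tested in edgeR 4.0.16 (robust quasi-likelihood, R 4.3.3, limma 3.58.1), with Benjamini-Hochberg adjustment over 16175 genes and a threshold of 0.05. The test was also run on simulated counts. Intervals are 95%, and the SE is the log2 fold change divided by the square root of F. CPM are TMM-normalized, log2 CPM use a prior count of 1, and levels per kilobase use the deposited length. Total counts of 24821601 to 34405433 per library set the counting precision. The epididymal score is the mean log2 CPM of 15 markers. Copies were found with BLAST 2.17.0 on GENCODE M21 transcripts, promoters come from RefSeq, and figures were drawn with Python 3.11.15 and matplotlib 3.10.9.

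The ribosomal protein genes and the other gene lists were chosen with earlier results of these data known. The genes named with values are the stalk genes, Rpsa, Rps6, Rps27a, Rpl5 and Rpl11, each paralog with its parent, the 3 highest and 3 lowest by fold change and by level, the 3 with the largest variation within groups, and from each other list up to 3 genes by smallest p. Further genes stand as examples, because a small count holds them or because they lay near those ends, chosen after their values were seen, and some results that the rule gives are not reported here.

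Alternatives were 4 other scalings, 2 other filters, limma-voom (sample weights), DESeq2 1.42.0, limma on the deposited log2-like values, a block for replicate number, a covariate for listed age or for the epididymal score, a threshold of 0.01, subsets of numbers and leaving out libraries. Same-numbered libraries, numbered in the titles, shared their deviations from the group means in all 6 pairs (correlations across genes of 0.262 to 0.799), although only 3 of 12 libraries correlated best with their own number. The main fit took no pairs.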

Additional observations from a re-analysis of the deposited data

Results flagged for a closer look

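Among 60 sets of 6 libraries, for the 29 named ribosomal protein genes and the share of counts in each group, 16 had a single library so far from the other 5 that Dixon's test at its 95% level picked it out. Chance picks out about 1 in 20 sets, and the genes share libraries, so the 16 are not independent. All 16 were either vehicle 2 or epinephrine 1, and all were the highest of their group.

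Epinephrine 1 was the outlying library for 11 genes and for the share of counts. It read 429 CPM for Rpl10, 216 CPM for Rpl22, 357 CPM for Rpl26, 339.5 CPM for Rpl3, 210 CPM for Rpl5 and 417 CPM for Rps15. It read 481 CPM for Rps26, 276 CPM for Rps27, 44.4 CPM for Rps4l, 283 CPM for Rps4x and 173 CPM for Rps6. The 87 genes together took 2.00% of its counts. Vehicle 2 was the outlying library for Rpl10 at 420 CPM, Rpl36al at 77.6 CPM, Rpl3l at 56.8 CPM and Rplp0 at 912 CPM. Without epinephrine 1, the log2 fold changes of the 11 genes it stood out in lay between -0.18 (Rpl22) and 0.04 (Rps27), and without vehicle 2 those of its 4 genes were 0.26 (Rpl10), 0.40 (Rpl36al), 2.22 (Rpl3l) and 0.30 (Rplp0), none of them called by edgeR.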

How the results depend on the processing

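In all 29 alternatives but the listed age as a covariate, 0 members were higher, and 0 were lower in all 29. With listed age as a covariate, 49 of 85 were higher with a median log2 fold change of 0.51, and 2339 genes were higher and 1528 lower in all. The ages of the groups do not overlap, and within a group listed age follows the replicate number, so that coefficient compares them at ages neither had. Leaving out each library in turn gave 0 to 0 members higher, 0 to 0 lower and a median from -0.02 to 0.15. With the replicate number as a block, 0 members were called in either direction and the median was 0.06. The 29 named members had 811 values under the alternatives. Of these, 122 changed sign without being called, and 16 were called, all with listed age as a covariate. The 9 calls among the 82 genes of the biogenesis, polymerase I and mTOR lists became 18 under library size scaling, 17 under limma-voom, 0 with numbers 1 to 3 alone, 2 at a threshold of 0.01 and 6 to 10 without a library. No gene of any kind was called with numbers 1 to 3 alone. Polr1d, Sesn1 and Rheb were also not called with numbers 4 to 6 alone. Gnl3, Fbl, Taf1d, Polr1d, Taf1c, Sesn2 and Rheb were not called with listed age as a covariate.

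The 56 members that rose with the epididymal score, a test chosen after seeing the data, became 0 with the replicate block, 29 with Gpx5 alone as the score, 1 when the 3 libraries whose Gpx5 share exceeded 0.5% were left out, 0 with numbers 4 to 6 alone (0 at an unadjusted p under 0.05) and 3 without vehicle 2 and epinephrine 1. Leaving out 1 library gave 24 to 64, with 24 both without vehicle 2 and without epinephrine 1. Without any other single library it was 45 to 64, and the cause was not tested. Members with few counts, such as Rpl3l at 0 to 5 reads in 4 libraries, are limited by depth.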
